A study of Mus musculus with 56 samples.

Results

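Cited1, Acan, Drd4 and Susd3 are 4 genes whose transcripts were rare in adrenal glands of castrated male mice and abundant in glands of sham-operated males. They were chosen by their normalised CPM in that contrast, castrated against sham, out of 55414 gene identifiers in the count table of the surgery experiment, by mapping each symbol to its Ensembl identifier. They were then followed over genotype and age in intact males and females. All 4 passed the filter on low counts in the surgery and male tables, and 3 passed it in the female table, where Drd4 did not. Since the castration contrast chose them, their values in it are a description and carry no test. The tests of the 4 genes below are on genotype, age and sex, in libraries that the choice did not use. Tests of other genes on castration use the same surgery libraries as the choice.

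The data are bulk RNA sequencing of whole adrenal glands of C57BL/6J mice, 56 libraries in 14 groups of 4 mice. Conditional knockout (cKO) mice carry SF1-Cre, a Cre driver of steroidogenic cells, and floxed Znrf3 (Znrf3 Fx/Fx), whose product is a ubiquitin ligase that clears Wnt receptors off the plasma membrane. Controls are littermates labelled SF1-Cre negative. Males were taken at 4, 6 and 9 weeks, as cKO and as control, and females of both genotypes at 6, 9 and 12 weeks. In the surgery experiment, male cKO mice were castrated or sham-operated at week 4 and taken at 9 weeks, so both of those groups lack Znrf3 in the Cre-expressing cells and neither has a Cre-negative counterpart. Those mice also carried mixed reporter alleles. Castrated replicates 1 to 4 were R26eYFP/WT, none, R26mTmG/mTmG and R26mTmG/mTmG, and sham replicates 1 to 4 were R26eYFP/WT, R26mTmG/WT, none and R26eYFP/WT. The sham libraries have no distinct replicate numbers in the labels, so their numbers are names only.

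The testis is the main source of circulating androgen in male mice, and castration removes it. In the mouse adrenal the inner cortex responds to this hormone: the X-zone, a transient inner layer marked by Akr1c18 and Pik3c2g, disappears in males at puberty and persists in young females. Cited1 encodes a transcriptional co-regulator that does not bind DNA itself and acts through partners such as CBP/p300, SMAD4 and oestrogen receptor alpha. Drd4 encodes a dopamine receptor of the D2 class, which couples to inhibitory G proteins. Susd3 encodes a membrane protein with a sushi domain, described in human breast cancer cells as responsive to oestrogen. Acan encodes aggrecan, the large chondroitin sulphate proteoglycan of cartilage matrix.

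Levels are CPM, read counts scaled to a common library total with TMM factors, which also correct for composition, and folds are edgeR estimates. Library totals ranged from 35694264 to 51604620 counts in females, 12431963 to 35531016 in males and 25145519 to 42411447 in the surgery experiment. The 3 tables were scaled separately, so levels are compared within a table only. The labelled knockout of Znrf3 is not checked by these counts, which cover the whole gene: they were higher in each female cKO library, 55.6 to 101 CPM, than in any female control, 31.2 to 40.4 CPM. Among 4-week male controls, replicate 2 was well below the others in all 4 genes and well above them in the X-zone marker Akr1c18. Results that rest on this gland are given with and without it.

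On GRCm38, in the GENCODE M21 annotation, Cited1 (ENSMUSG00000051159) lies on the minus strand of chromosome X from 102247381 to 102252181. Acan (ENSMUSG00000030607) lies on the plus strand of chromosome 7 from 79053483 to 79115099, and Drd4 (ENSMUSG00000025496) on the same strand and chromosome from 141292006 to 141296464. Susd3 (ENSMUSG00000021384) lies on the minus strand of chromosome 13 from 49230690 to 49248706. The sequences just upstream of their start sites are shown because the 4 genes differ together between castrated and sham glands. They are RefSeq sequences of GRCm38.p6, 5′ to 3′ on the gene's strand, up to 250 bases before a start site with any annotated untranslated bases left out. Capitals mark the motifs found, and Cited1 has 3 annotated start sites. The stretches of Susd3 and of start 3 of Cited1 lie inside the gene spans given above. They are upstream of 1 start site and not of the whole gene.
Cited1, start 1 (chrX:102252182-102252431, minus strand): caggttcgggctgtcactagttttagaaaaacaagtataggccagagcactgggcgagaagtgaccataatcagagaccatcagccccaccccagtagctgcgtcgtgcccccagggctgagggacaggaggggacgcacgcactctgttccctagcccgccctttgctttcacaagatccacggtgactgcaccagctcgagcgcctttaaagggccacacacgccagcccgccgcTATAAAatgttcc
Cited1, start 3 (chrX:102250947-102251026, minus strand): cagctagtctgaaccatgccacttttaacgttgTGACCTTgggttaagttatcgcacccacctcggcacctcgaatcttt
Acan (chr7:79052976-79053225, plus strand): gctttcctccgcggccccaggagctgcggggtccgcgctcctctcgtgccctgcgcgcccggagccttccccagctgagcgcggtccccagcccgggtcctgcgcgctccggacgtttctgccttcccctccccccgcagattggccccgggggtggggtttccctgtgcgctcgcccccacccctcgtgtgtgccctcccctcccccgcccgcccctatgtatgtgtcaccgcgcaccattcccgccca
Drd4 (chr7:141291768-141292005, plus strand): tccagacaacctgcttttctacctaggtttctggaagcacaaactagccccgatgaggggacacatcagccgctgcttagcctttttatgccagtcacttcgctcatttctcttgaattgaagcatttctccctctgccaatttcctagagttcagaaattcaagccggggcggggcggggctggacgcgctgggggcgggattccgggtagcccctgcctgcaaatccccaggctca
Susd3 (chr13:49248295-49248470, minus strand): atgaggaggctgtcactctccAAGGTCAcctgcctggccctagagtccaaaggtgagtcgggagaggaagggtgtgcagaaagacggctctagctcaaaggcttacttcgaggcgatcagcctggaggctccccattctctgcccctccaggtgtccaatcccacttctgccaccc

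Of 5 motifs searched, matches to 3 are given, for both strands of the 300-base windows from 250 bases before to 50 after each start site. The SF1 site AAGGTCA, in 4.72% of all 32851 windows of the genome's table, was found in Susd3 at base -155 on the gene's strand and in start 3 of Cited1 at base -217 on the other strand, where it reads TGACCTT in print. The TATA box, spelled TATAAA and in 13.6% of all windows, lay at base -13 of start 1 and base -115 of start 2 of Cited1. The TCF/LEF site CTTTGAT, in 3.73% of all windows, was in none of the windows of the 4 genes. Both SF1 matches, and the TATA match of start 2, lie inside the annotated span of their gene. These matches describe the letters in the window and not where a factor binds.

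Some reads of each transcript were still counted in castrated glands, and whether they stand for remaining expression was not tested. Cited1, the co-regulator, had 0.406, 0.219, 0.165 and 0.26 CPM in the 4 castrated glands, against 44, 66.8, 75 and 80.8 CPM in the 4 sham glands. The highest castrated gland was thus far below the lowest sham gland. For all 4 genes such separation describes the contrast that chose them. The share of all genes whose groups do not overlap was not counted, here or in the comparisons below. These levels rest on 32 reads over all castrated libraries and 9912 over all sham libraries, and the means were 0.262 ± 0.103 CPM against 66.6 ± 16.2 CPM (SD, n = 4 each), a 258-fold difference (log2 fold change -8.01). It was the lowest log2 fold change of the 16961 genes tested.

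Drd4, the dopamine receptor, had 0.221, 0.0625, 0.247 and 0.13 CPM in castrated glands, against 14.3, 20.1, 20.9 and 28.1 CPM in sham glands. The groups did not overlap, and the castrated values come from 21 reads in all. The means were 0.165 ± 0.0848 CPM in castrated and 20.8 ± 5.66 CPM in sham glands (SD, n = 4 each), 123-fold lower after castration (log2 fold change -6.94, the 7th lowest). Susd3, the sushi domain protein, had 1.59, 1.25, 0.797 and 1.69 CPM in castrated glands, against 57.6, 147, 147 and 172 CPM in sham glands. Its castrated values come from 164 reads in all, 29 to 52 in each library. Sham replicate 1 was well below the other sham glands and still far above every castrated one. It was the lowest sham gland for all 4 genes. Its library as a whole differed from the other sham libraries, with a chi-square per degree of freedom of 317 to 368, against 28 to 44.3 among those. Susd3 was 99.1-fold lower after castration (log2 fold change -6.63), and without that sham library its log2 fold change was -6.88.

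Acan, the cartilage proteoglycan, had 0.959, 1.5, 0.687 and 1.01 CPM in castrated glands, against 75.8, 136, 113 and 101 CPM in sham glands. Its castrated values come from 130 reads in all, 25 to 48 in each library. The groups were again separate, 1.04 ± 0.338 CPM in castrated and 106 ± 25.1 CPM in sham glands (SD, n = 4 each), a 102-fold difference (log2 fold change -6.68). Other cartilage genes were at or near 0 reads. Of 6 such genes, Col2a1 had 0 to 4 reads in castrated and 2 to 4 reads in sham libraries, Col9a1 0 and 0 to 3, Chad 0 to 2 and 1 to 3, Cnmd 0 to 3 and 0 to 5, and Matn3 0 to 1 in both. Summed over the 6, the level was 0.5 to 1.62 CPM in castrated and 1.81 to 4.37 CPM in sham glands. Col11a2 gave most of it and was the 1 gene of the 6 with enough reads to be tested, with a log2 fold change of -1.82.

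**Figure D1:**
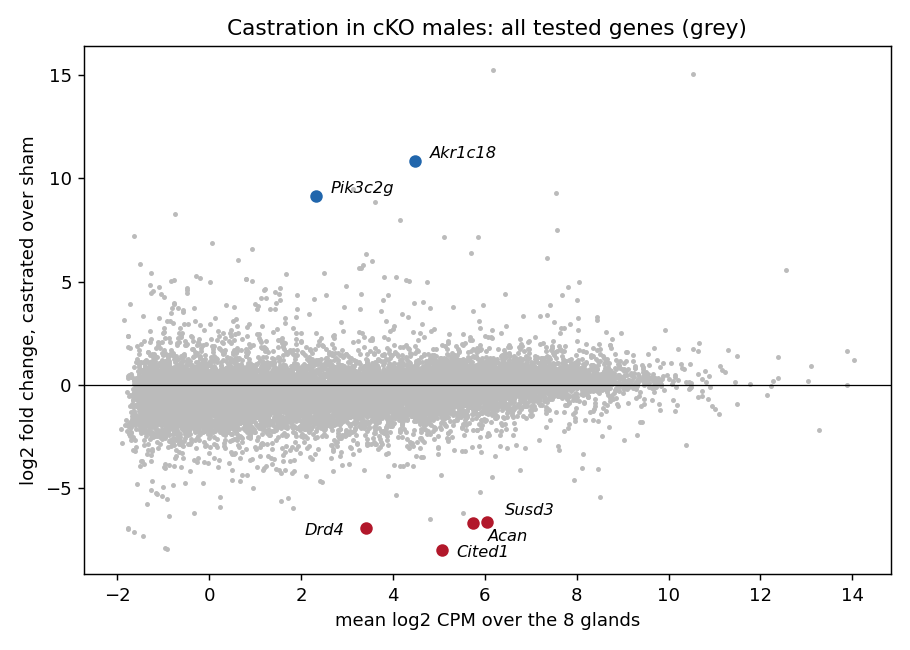
Each grey point is 1 of the 16961 genes tested in the surgery experiment, with its mean log2 CPM over the 8 glands on the x axis and its log2 fold change, castrated over sham cKO males, on the y axis. The 4 genes (red) lie at log2 fold changes of -6.63 to -8.01, at the lower edge, and the X-zone markers Akr1c18 and Pik3c2g (blue) at the upper edge.

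The 4 genes ranked 1st, 7th, 9th and 10th by log2 fold change. The other genes among the 10 lowest were much rarer: Defb39 had a mean log2 CPM of -0.91 over the 8 glands and 5830415G21Rik one of -1.77, whereas Drd4 had 3.41, Cited1 5.07, Acan 5.75 and Susd3 6.05. The next gene in the order was Cd5l, with a log2 fold change of -6.52, a gene of macrophages. Castration changed much of the transcriptome, with 43.6% of tested genes called by edgeR's quasi-likelihood test at a Benjamini-Hochberg adjusted p under 0.05. A decrease of at least 32-fold was seen in 28 genes, and 39 genes were called with an increase of that size. In all 8 leave-one-out fits the log2 fold changes of the 4 genes stayed between -6.43 and -8.26, a description only, since this contrast chose the genes.

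Cell composition moved with castration too, and in whole glands fewer cells of a type and less RNA per cell cannot be told apart. Cortex markers summed to 68700 to 78900 CPM in castrated glands and 26800 to 39500 CPM in sham glands, and 6 of 8 rose and 1 fell (edgeR, adjusted p under 0.05). Cortex transcripts took a larger share in the glands where the 4 genes were lower. Which cells express the 4 genes is not shown by these whole-gland counts. Both X-zone markers were higher: Akr1c18 had 109, 52.3, 4.54 and 13 CPM in castrated glands and 0 to 0.0543 CPM in sham glands, and Pik3c2g 3.54, 25.8, 8.72 and 1.5 CPM against 0 to 0.039 CPM. In sham libraries both markers were at 0 reads in at least 1 gland. Macrophage markers summed to 372 to 598 CPM in castrated and 1280 to 2590 CPM in sham glands, and 8 of 10 fell. All 10 medulla markers fell, to 360 to 801 CPM in sum, against 1060 to 2080 CPM in sham glands. Of the zona glomerulosa markers 7 of 8 fell and 1 rose, and all 8 fibroblast and capsule markers, all 6 Schwann cell markers, all 5 erythrocyte genes and 6 of 7 endothelial markers fell. Of 7 lymphocyte markers 2 fell, as did 1 of 4 adipocyte genes tested. The 5 kidney tubule markers were not tested, and all were at 0 reads in at least 1 library of each group. What part these shifts have in the level of the 4 genes was not tested.

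The counts of the lists that follow, on castration, are to be read against the 43.6% of all tested genes that were called, 3363 higher and 4039 lower. A total share near 43.6% is no result about the list. Among 9 tested genes of the CITED family and its partners, 2 rose and 2 fell, a share close to that of all genes, with a median log2 fold change of 0.22 against -0.01 over all genes. Cited2 went in the opposite direction to Cited1, 174 ± 39.5 CPM in castrated against 56.6 ± 7.37 CPM in sham glands (SD, n = 4 each; 3.07-fold, edgeR adjusted p = 4.72e-05), and Cited4 was 2.72-fold higher (adjusted p = 0.00224). Esr1, a partner of Cited1, fell 2.85-fold (adjusted p = 0.000303), and Tfap2b, a transcription factor that CITED proteins co-activate, fell 4.06-fold (adjusted p = 0.00101). Of 18 tested genes for proteoglycans and matrix partners of aggrecan, 8 fell and 1 rose (median -0.57), in total a share close to that of all genes. Most calls in this list were lower, unlike the near balance over all genes, and that lean was not tested. The ones named by smallest p were Sox6, Sox9 and Sox5, transcription factors of cartilage, and the hyaluronan synthase gene Has3, lower by 2.76-fold, 3.29-fold, 1.80-fold and 2.82-fold.

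Among 9 tested genes of dopamine reception and handling, 6 fell and 2 rose (median -0.82). Maoa, an enzyme that oxidises catecholamines, rose 1.74-fold (edgeR adjusted p = 0.00413), whereas Dbh, which converts dopamine to noradrenaline, fell 2.20-fold and the vesicular transporter gene Slc18a1 2.86-fold. The other dopamine receptor tested, Drd2, had a log2 fold change of -0.35 (adjusted p = 0.483). Of the 5 sushi domain relatives of Susd3, 4 fell, by 1.86-fold for Susd2 to 4.77-fold for Susd5, with a median log2 fold change of -1.25, and Susd6 had -0.11 (adjusted p = 0.545). Th, Ddc and Dbh of the dopamine list are also medulla markers, all 10 of which fell.

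Of 11 tested genes for sex steroid reception and sex steroid enzymes, 5 rose and 3 fell after castration (edgeR, adjusted p under 0.05; median log2 fold change 0.40). Srd5a1, which reduces testosterone to its more potent form, rose 2.48-fold, and Hsd3b6, a steroid dehydrogenase of the zona glomerulosa, fell 7.77-fold. Of 10 tested genes known as androgen-responsive in other tissues, 4 fell and 1 rose (median -0.37), in total a share close to the 43.6% of all genes called. The lean towards lower levels was not tested. Igf1 was 5.24-fold lower, at 8.89 ± 2.4 CPM in castrated against 46.7 ± 10.6 CPM in sham glands, Fkbp5 4.56-fold lower and Ndrg1 1.63-fold lower, and Odc1 was 2.35-fold higher. Of 7 tested gonad-type genes, 5 fell (median -1.42), among them Inhba and Inhbb, for activin and inhibin subunits, by 3.13-fold and 2.68-fold.

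**Figure D2:**
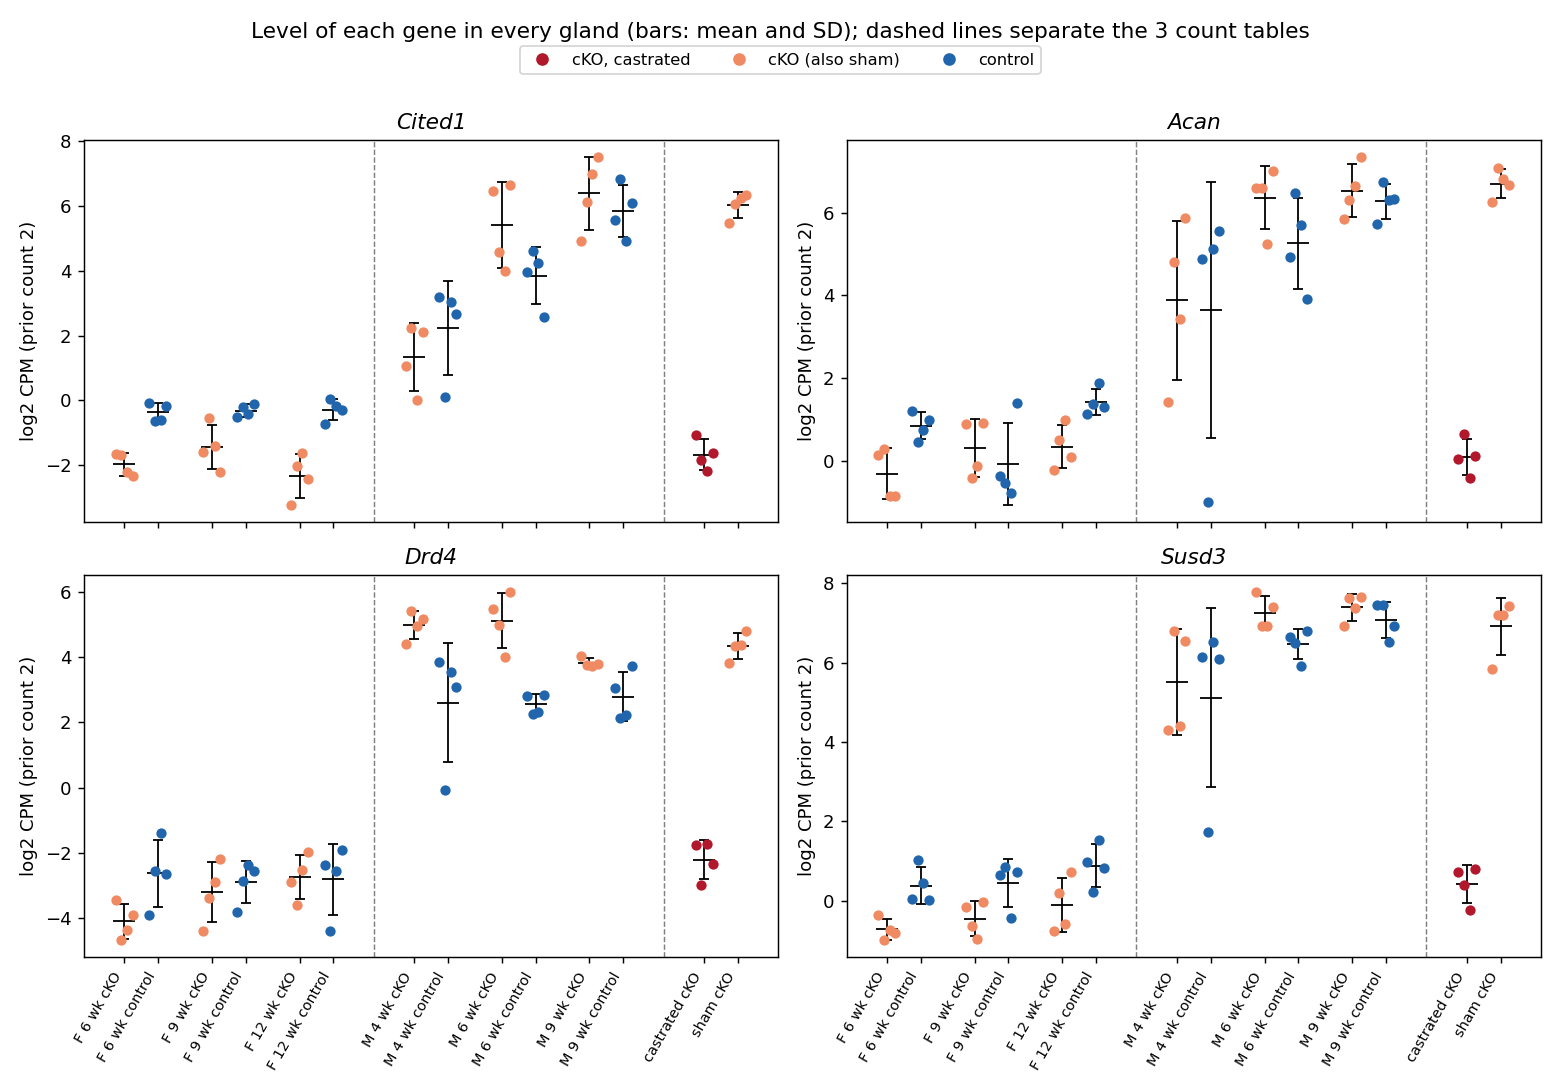
Log2 CPM (prior count 2) of each gene in every gland, with castrated cKO in red, cKO and sham cKO in orange and control in blue; long ticks mark group means and bars the SD of 4 glands. Dashed lines separate the tables of females, males and surgery, between which levels are not comparable. In males Cited1 is higher at 9 weeks than at 4 weeks in both genotypes. Castrated glands lie below all sham glands for each of the 4 genes, in the contrast that chose them.

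In intact males Cited1 was low at 4 weeks and high at 9 weeks in both genotypes. Control glands had 8.97, 0.945, 8.02 and 6.23 CPM at 4 weeks, 15.4, 24.2, 18.9 and 5.84 CPM at 6 weeks and 47.5, 113, 29.9 and 67.3 CPM at 9 weeks. All 9-week controls exceeded all controls of the younger ages, whereas the 4-week and 6-week ranges overlapped. The increase between 4 and 9 weeks was 10.5-fold (log2 fold change 3.39 ± 0.68 SE, edgeR adjusted p = 0.00754), in a comparison with 3.13% of genes called. Without 4-week control replicate 2 it was 3.07 ± 0.70 (adjusted p = 0.0369), and over all leave-one-out fits the adjusted p was at most 0.0404. Between 4 and 6 weeks, where 0.0702% of genes were called, the change was 1.39 (adjusted p = 0.313), and 1.06 without that gland (adjusted p = 0.572).

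The other 3 genes did not pass the test for age in control males. Acan controls averaged 27.9 ± 19.8 CPM at 4 weeks, 46.7 ± 32.2 CPM at 6 weeks and 79.7 ± 22.2 CPM at 9 weeks (SD, n = 4 each). Its log2 change between 4 and 9 weeks was 1.51 (adjusted p = 0.282). Susd3 controls averaged 58.3 ± 38.3, 90.5 ± 22 and 140 ± 41.6 CPM at the 3 ages, with a log2 change of 1.26 (adjusted p = 0.238). Drd4 controls averaged 8.83 ± 5.88, 5.88 ± 1.32 and 7.59 ± 4.12 CPM, with a log2 change of -0.23 (adjusted p = 0.847). For each of these, neighbouring ages overlapped. Between 4 and 6 weeks the adjusted p was 0.658 for Acan, 0.614 for Susd3 and 0.581 for Drd4. Without 4-week control replicate 2 the log2 changes between 4 and 9 weeks were 1.13 for Acan, 0.89 for Susd3 and -0.59 for Drd4, and those between 4 and 6 weeks 0.36, 0.26 and -0.96. The edgeR adjusted p of these 6 values ranged from 0.392 to 0.877.

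Within cKO males all 4 genes passed the age test between 4 and 9 weeks, in a comparison with 41.7% of genes called, so the count of 4 of 4 is to be read against that share. Cited1 had 2.01, 4.59, 0.88 and 4.16 CPM in cKO glands at 4 weeks, 88.5, 24, 15.9 and 98.9 CPM at 6 weeks and 30.3, 68.8, 126 and 182 CPM at 9 weeks. The 4-week cKO glands lay below all older ones, while the 6-week and 9-week ranges overlapped. The increase between 4 and 9 weeks was 35.9-fold (log2 fold change 5.16 ± 0.75 SE, edgeR adjusted p = 2.18e-05), and it kept its call in every leave-one-out fit. Acan rose by 2.03 ± 0.75 on the log2 scale (adjusted p = 0.0337) and Susd3 by 1.49 ± 0.57 (adjusted p = 0.0396). Drd4 moved the other way and fell by 1.21 ± 0.46 (adjusted p = 0.0396), with 21.4, 42.8, 31.3 and 36.2 CPM at 4 weeks and 16.4, 13.5, 13.2 and 13.8 CPM at 9 weeks, which do not overlap. These 3 calls depend on single libraries. The call of Acan was lost without 4-week cKO replicate 1, 2 or 3 or 9-week cKO replicate 3 or 4 (1.63 without 4-week replicate 1), and that of Susd3 without 4-week replicate 1 or 3 or 9-week replicate 2, 3 or 4 (lowest value 1.18). That of Drd4 was lost without 4-week replicate 2, 3 or 4 or 9-week replicate 2, 3 or 4 (nearest to zero, -1.05).

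Drd4 was higher in male cKO glands at 4 and 6 weeks. At 4 weeks it had 21.4, 42.8, 31.3 and 36.2 CPM in cKO glands, against 14.4, 0.819, 11.7 and 8.41 CPM in controls. Every cKO gland was above every control. The log2 fold change was 1.88 ± 0.48 SE, 3.67-fold (edgeR adjusted p = 0.00664), and without control replicate 2 it was 1.55 ± 0.38 (adjusted p = 0.00557). At 6 weeks cKO glands had 44.5, 31.9, 16.1 and 64.1 CPM, against 6.97, 4.68, 4.8 and 7.09 CPM in controls, again with no overlap, and the log2 fold change was 2.73 ± 0.50 (6.61-fold, adjusted p = 0.000316). At 9 weeks cKO glands had 16.4, 13.5, 13.2 and 13.8 CPM, against 8.16, 4.35, 4.64 and 13.2 CPM in controls. The ranges met at 13.2 CPM, and the log2 fold change was 0.90 ± 0.47 (adjusted p = 0.177). The change of the effect between 4 and 9 weeks was -0.97 on the log2 scale (adjusted p = 0.388; -0.61 without 4-week control replicate 2, adjusted p = 0.478), so the ages were not shown to differ.

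Cited1 passed the genotype test in males at 6 weeks, where cKO glands had 88.5, 24, 15.9 and 98.9 CPM and controls 15.4, 24.2, 18.9 and 5.84 CPM. The groups overlapped, since 2 of the cKO glands were no higher than the highest control. The log2 fold change was 1.81 ± 0.63 SE (edgeR adjusted p = 0.0431), and the call was lost without cKO replicate 1 (1.55) or 4 (1.44) or control replicate 1 (1.83), 3 (1.95) or 4 (1.55). At 4 weeks the means were 2.91 ± 1.76 CPM in cKO and 6.04 ± 3.58 CPM in control glands (SD, n = 4 each; log2 fold change -1.12 ± 0.75, adjusted p = 0.325; -1.42 ± 0.74 without control replicate 2, adjusted p = 0.187). At 9 weeks they were 102 ± 66.4 CPM in cKO and 64.4 ± 35.8 CPM in control glands (0.66 ± 0.59, adjusted p = 0.453). The change of the genotype effect from 4 to 9 weeks was 1.77 ± 0.95 (adjusted p = 0.262; 2.10 ± 0.92 without 4-week control replicate 2, adjusted p = 0.16).

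In the fit of all male groups, Acan and Susd3 did not pass the genotype test at any of the 3 ages. At 6 weeks Acan had 96.9, 96.9, 38 and 128 CPM in cKO glands, against 30.4, 89.2, 52.2 and 15 CPM in controls, which overlap (log2 fold change 0.94 ± 0.73 SE, edgeR adjusted p = 0.401). Susd3 had 219, 120, 121 and 168 CPM in cKO glands, against 101, 89.7, 60.2 and 111 CPM in controls, which do not overlap (0.80 ± 0.56, adjusted p = 0.355). A fit of only the 6-week groups gave 0.81 ± 0.22 for Susd3 (edgeR adjusted p = 0.0214) and 0.96 ± 0.48 for Acan (adjusted p = 0.184). In the fit of all male groups their log2 fold changes at 4 and 9 weeks lay between -0.20 and 0.33, with adjusted p of 0.748 to 0.959. The changes of the effect between 4 and 9 weeks were 0.52 for Acan (adjusted p = 0.802) and 0.23 for Susd3 (adjusted p = 0.895). Without 4-week control replicate 2 the 4-week log2 fold changes were -0.55 for Acan (adjusted p = 0.587) and -0.28 for Susd3 (adjusted p = 0.687), and the changes of the effect 0.90 (adjusted p = 0.553) and 0.60 (adjusted p = 0.563).

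Set against the background, the male genotype test called 19.2% of genes at 4 weeks (1 of the 4 genes, Drd4), 20.1% at 6 weeks (Cited1 and Drd4) and 24.1% at 9 weeks, and the change of the effect between 4 and 9 weeks called 4.92%. Medulla markers were lower in male cKO glands at each age (10 of 10 called), for example with sums of 775 to 1380 CPM in cKO and 8190 to 16700 CPM in control glands at 6 weeks. Macrophage markers were higher in cKO at 6 and 9 weeks (8 of 10 called each), with sums of 615 to 2090 CPM in cKO and 298 to 345 CPM in controls at 6 weeks. Their part in the values of Drd4 and Cited1 was not tested. Of the 9 tested genes of dopamine handling, 7 fell and 1 rose in cKO males at each age, with median log2 fold changes of -2.22, -2.72 and -2.28. Drd2 had -2.30, -2.72 and -2.28, where Drd4 had 1.88, 2.73 and 0.90. Among CITED partners Tfap2b had -3.57, -4 and -2.89, and Cited4 had 0.89 and 1.02 at 4 and 6 weeks (adjusted p = 0.0449 and 0.0252). Of the sushi domain relatives 3, 2 and 3 of 5 fell at the 3 ages. Of the aggrecan list of 19 tested genes 3, 3 and 2 fell and 0, 2 and 1 rose.

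The library numbers in the column headers of the male table divide the glands in a way that partly follows genotype. At 6 weeks every cKO number is at most 24 and every control number above it, so library number and genotype cannot be told apart there. At 4 weeks no cKO and 3 of 4 controls are above 24, and at 9 weeks each genotype has 2 glands on either side. With library number above 24 as a covariate, Drd4 had a genotype effect of 1.76 at 4 weeks (adjusted p = 0.045) and 2.53 at 6 weeks (adjusted p = 0.0122), and Cited1 one of 1.93 at 6 weeks (adjusted p = 0.187), no longer called. The coefficient of the covariate comes from the 4-week and 9-week glands alone, so the 6-week values are not an adjustment within that age. Within the 9-week glands above 24 the log2 fold change was 1.67 for Cited1 (adjusted p = 0.0361), 0.80 for Susd3 (adjusted p = 0.0284), 0.73 for Acan and 0.60 for Drd4. Within those up to 24 it was -0.67 for Cited1, -0.10 for Susd3, -0.20 for Acan and 1.29 for Drd4, with adjusted p of 0.108 to 0.878. The sign of the 9-week effect on Cited1, Acan and Susd3 thus differed between these subsets, with 2 glands of each genotype in each. Age in cKO males and the change of the genotype effect were not fitted with library number as a covariate. Among 9-week cKO glands, Cited1 had 126 and 182 CPM in those above 24, and 30.3 and 68.8 CPM in those up to 24.

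**Figure D3:**
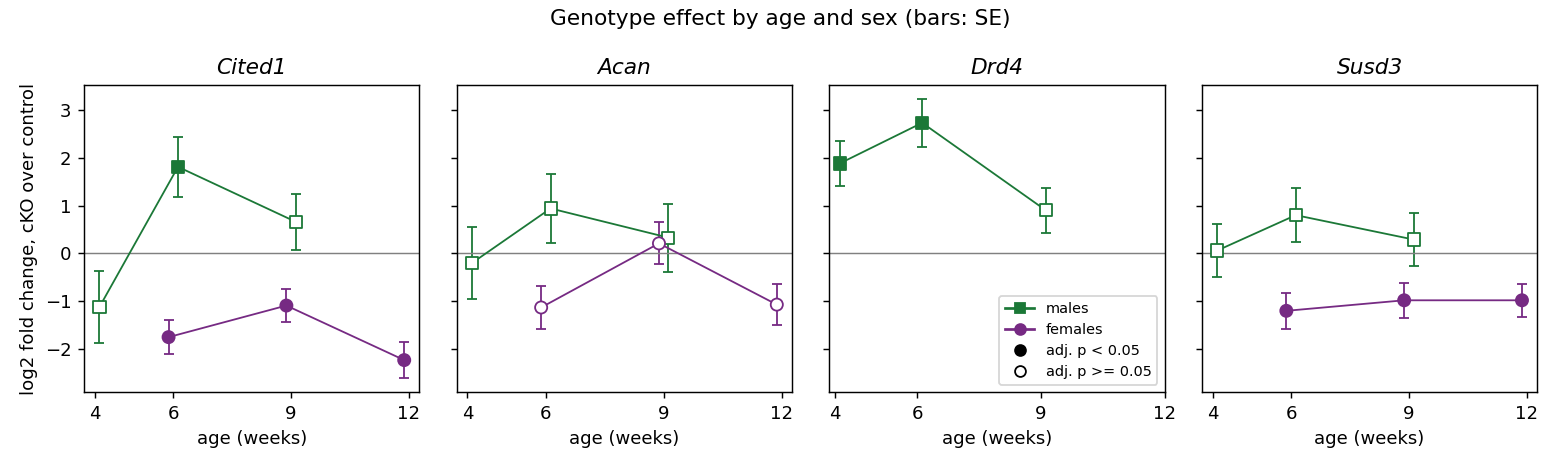
Log2 fold change of cKO over control (y axis, bars are SE) against age in weeks, for males (green squares) and females (purple circles); filled symbols have an edgeR adjusted p under 0.05. Drd4 is above 0 in males at each age, with no female value since it did not pass the filter there, and Cited1 and Susd3 are below 0 in females at each age.

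One 4-week control gland, replicate 2, was low in each gene: 0.945 CPM for Cited1, 0.378 for Acan, 0.819 for Drd4 and 3.21 for Susd3. The lowest of the other 3 controls had 6.23, 29.2, 8.41 and 68 CPM. The same library had 264 CPM of Akr1c18, against 1.15, 2.02 and 0.623 CPM in controls 1, 3 and 4, and 0 to 0.0729 CPM in the cKO glands of that age. It expressed Y-linked genes like the other males. No other male gland of the 24 had more than 2.02 CPM of Akr1c18. The 4-week cKO glands were uneven as well, with 2.61, 27.8, 10.6 and 58.9 CPM of Acan and 19.8, 111, 21.1 and 92.8 CPM of Susd3, and their Akr1c18 was at or near 0.

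**Figure D4:**
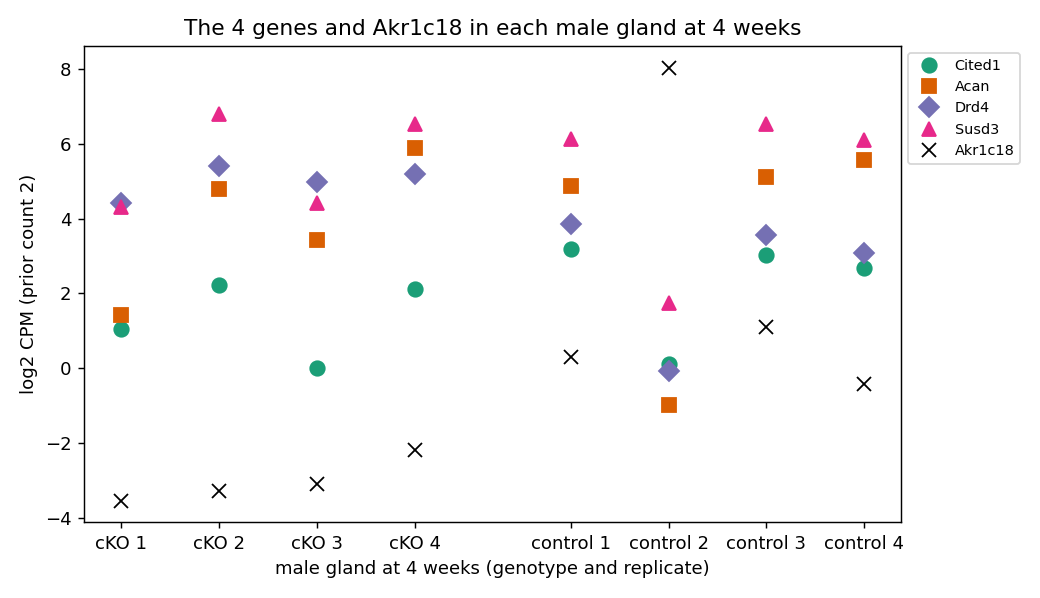
Log2 CPM (prior count 2) of Cited1, Acan, Drd4, Susd3 and the X-zone marker Akr1c18 in each of the 8 male glands at 4 weeks, cKO on the left and control on the right. In control replicate 2 the 4 genes are lowest among controls, at 0.378 to 3.21 CPM, and Akr1c18 is highest, at 264 CPM.

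In females the 4 genes were rare throughout, and Cited1 and Susd3 were lower in cKO glands. Cited1 had 0.275, 0.274, 0.169 and 0.154 CPM in cKO glands at 6 weeks, against 0.911, 0.602, 0.618 and 0.838 CPM in controls, with no overlap. It fell by 1.75 ± 0.36 SE on the log2 scale (3.36-fold, edgeR adjusted p = 0.000649), in a comparison with 33.4% of genes called, where Susd3 was called too. At 9 weeks cKO glands had 0.283, 0.645, 0.321 and 0.163 CPM and controls 0.657, 0.823, 0.69 and 0.876 CPM, and the fall was 1.09 ± 0.35 (adjusted p = 0.0191), a call lost without cKO replicate 1 (-1.0) or 4 (-0.86). At 12 weeks cKO glands had 0.0535, 0.19, 0.275 and 0.139 CPM and controls 0.55, 0.98, 0.832 and 0.766 CPM, and the fall was 2.23 ± 0.38 (adjusted p = 0.000138). The groups were separate at all 3 ages, and the calls at 6 and 12 weeks held in every leave-one-out fit.

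Susd3 also fell in female cKO glands. At 6 weeks it had 0.732, 0.469, 0.557 and 0.529 CPM in cKO and 1, 1.97, 1.31 and 0.974 CPM in control glands, which do not overlap, a fall of 1.20 ± 0.37 SE (edgeR adjusted p = 0.0145). That call was lost without control replicate 2 (-0.93). At 9 weeks, where 34.6% of genes were called, the fall was 0.98 ± 0.36 (adjusted p = 0.0411), and the call was lost without cKO replicate 2 or 3 or control replicate 1, 2 or 4 (-0.82 to -0.93). At 12 weeks, where 25.1% of genes were called, it was 0.98 ± 0.35 (adjusted p = 0.047), and it was lost without cKO replicate 1, 2 or 3 or control replicate 1, 3 or 4 (-0.71 to -1.04).

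Acan averaged 0.809 ± 0.351 CPM in cKO and 1.78 ± 0.408 CPM in control females at 6 weeks (SD, n = 4 each; log2 fold change -1.13 ± 0.44 SE, edgeR adjusted p = 0.0531). It averaged 1.28 ± 0.487 CPM in cKO and 2.68 ± 0.649 CPM in control females at 12 weeks (-1.07 ± 0.43, adjusted p = 0.0757). At 9 weeks it had 1.79, 0.693, 0.857 and 1.84 CPM in cKO and 0.727, 0.631, 0.524 and 2.58 CPM in control glands (0.21, adjusted p = 0.756), and without control replicate 4, the highest, the log2 fold change was 1.04 (adjusted p = 0.0483). Drd4 had between 0 and 0.209 CPM in female cKO glands and between 0 and 0.333 CPM in female controls, and did not pass the filter on low counts. Without that filter edgeR gave log2 fold changes of -2.89 ± 1.03 SE at 6 weeks (adjusted p = 0.0509), -0.31 at 9 weeks (adjusted p = 0.945) and -0.07 at 12 weeks (adjusted p = 1), the first on 3 reads in all 4 cKO and 25 in all 4 control libraries. Age from 6 to 12 weeks changed 0.0912% of genes in female controls and 9.93% in female cKO glands, and the genotype effect changed between these ages in 0.322%. For Cited1, Acan and Susd3 the adjusted p of these 3 comparisons ranged from 0.216 to 0.986. X-zone Akr1c18 was present in every female gland, for example at 5.08 to 31.6 CPM in cKO and 1240 to 3200 CPM in controls at 6 weeks. Medulla markers summed to 285 to 539 CPM in cKO and 4250 to 5570 CPM in control females at that age, and 10 of 10 fell at each of the 3 ages. Fibroblast and capsule markers summed to 385 to 771 CPM in cKO and 851 to 1090 CPM in controls (6 of 8 fell), Schwann cell markers to 5.62 to 7.72 CPM in cKO and 11.3 to 16 CPM in controls (5 of 6 fell), and macrophage markers to 396 to 1090 CPM in cKO and 228 to 404 CPM in controls (6 of 10 rose). The part of these shifts in the female values of Cited1, Susd3 and Acan was not tested.

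The genotype effect itself was set against sex in joint fits of both tables, in which a term for sex also takes up the table. At 6 weeks, where 7.63% of genes were called, the effect in males minus that in females was 3.54 ± 0.91 SE on the log2 scale for Cited1 (edgeR adjusted p = 0.0254) and 1.97 ± 0.40 for Susd3 (adjusted p = 0.0074). For Acan it was 2.05 ± 0.70 (adjusted p = 0.0882). In males at 6 weeks library number and genotype cannot be told apart, and the joint fit does not remove this limit. Drd4 had 5.57, a value from which nothing is read, since it failed the filter in females and entered the joint fit through the male libraries, where it is high. The call of Cited1 was lost without female control replicate 4 (3.48, adjusted p = 0.0528). At 9 weeks, where 8.68% of genes were called, the differences were 1.72 for Cited1 (adjusted p = 0.244), 1.26 for Susd3 (adjusted p = 0.0704) and 0.12 for Acan (adjusted p = 0.928).

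Across the 24 male glands Cited1, Acan and Susd3 varied together, and how far Drd4 followed them depended on the group means and on 1 gland. As a description, over glands that share library depth and group, Pearson's r of log2 CPM was 0.91 for Acan with Susd3, 0.82 for Cited1 with Acan and 0.81 for Cited1 with Susd3. With Drd4 it was 0.44 for Susd3, 0.38 for Acan and 0.12 for Cited1. Without 4-week control replicate 2 the first 3 were 0.81, 0.83 and 0.83, and those with Drd4 were -0.01, -0.08 and -0.15. After group means were removed, r over all 24 glands was 0.85 for Acan with Susd3, 0.75 for Cited1 with Acan and 0.70 for Cited1 with Susd3, and with Drd4 it was 0.80 for Susd3, 0.72 for Acan and 0.58 for Cited1. With group means removed, r without that gland was 0.64 for Cited1 with Acan, 0.58 for Acan with Susd3, 0.56 for Cited1 with Susd3 and 0.23 to 0.39 for the pairs with Drd4.

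Over the same 24 male glands and 13379 genes, the genes most like Cited1 were St6galnac2, for a sialyltransferase (r = 0.94), Als2cl (0.93) and Kcnmb4, for a potassium channel subunit (0.92). Over the 24 female glands their r with Cited1 was 0.69, 0.70 and 0.60, and over the 8 surgery glands 0.98, 0.94 and 0.99. Most like Acan were Fgf11, for a fibroblast growth factor homologue (0.96), Susd3 (0.91) and Hivep3, for a zinc finger factor (0.90), with 0.46, 0.53 and 0.62 over female glands and 0.97, 0.99 and 0.94 over surgery glands. Most like Susd3 were Plin4, for a lipid droplet coat protein (0.95), 2010007H06Rik (0.94) and Tmem52 (0.93), with 0.41, 0.49 and 0.51 over female glands and 0.92, 0.99 and 0.99 over surgery glands. Drd4 had as its nearest Acvr1, for a type I receptor of the BMP family, Ighm, for the IgM heavy chain, and Tpm2, for a tropomyosin (each 0.90). Over the surgery glands Acvr1 and Tpm2 again followed Drd4 (0.97 and 0.96), whereas Ighm did not (0.02). These r include 4-week control replicate 2, and without it they were 0.91 to 0.93 for the genes named with Cited1, 0.81 to 0.92 with Acan, 0.84 to 0.93 with Susd3 and 0.84 to 0.86 with Drd4. The order of likeness depended on that gland and on the measure. Without the gland Fgf11 ranked 1, Hivep3 6 and Susd3 39 for Acan, and Plin4 ranked 1, 2010007H06Rik 12 and Tmem52 23 for Susd3. By Spearman's rho over the 24 glands Fgf11 ranked 48 and Susd3 383 for Acan, and Plin4 41 for Susd3. Since the 8 surgery glands fall into 2 separate groups, a high r there mostly states that a gene is lower after castration.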

How the data were processed

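Directional libraries were made from poly(A) RNA of whole adrenals, according to the labels' protocols. The authors deposited raw counts per Ensembl gene in 3 tables (24 female, 24 male and 8 surgery libraries), with 55487, 55487 and 55414 identifiers. The build was GRCm38, and the tools listed are cutadapt 1.16, DESeq2 1.30.1, featureCounts, RSEM 1.6.3 and STAR 2.7.6a, per the submitters' processing notes, which give no role for each. Annotation release and strand setting are not given in the sources used here, and 6.01% of counts in sham replicate 1 fell on 1 identifier without a symbol in GENCODE M21.

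The analysis used edgeR 4.0.16 under R 4.3.3 (filterByExpr with a minimum count of 10, TMM factors, quasi-likelihood test, Benjamini-Hochberg adjusted p under 0.05), with all groups of a table in 1 fit. This left 18645, 17086 and 16961 genes. Standard errors are approximate (log2 fold change over the root of F). The scripts were tested on simulated data. Alternatives used DESeq2 1.42.0, other filters and scalings, each library left out, library number and a replicate block. Mice in a group are independent per the series' design, and no 2 libraries agreed within sampling noise (chi-square per degree of freedom at least 10.1 over 84 pairs).

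Same-numbered cKO and control glands did not deviate together (r from -0.25 to 0.11), so the numbers were not taken as pairs. Library depth, 12431963 to 51604620 counts, limits precision for the rare transcripts of females and castrated males, and read counts there cover counting error only. The 4 genes and all lists were chosen with earlier results of these data known. Named are the 4 genes, the 3 genes most like each by Pearson's r over male glands (mean log2 CPM at least 1), up to 4 genes a list by smallest p over the male genotype effects or castration, and, chosen after their values were seen, Defb39, 5830415G21Rik, Cd5l, Drd2, Susd6 and the cartilage genes. Some genes of these lists are counted but not reported here by name, and 2 of the 5 motifs searched are not reported here.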

Additional observations from a re-analysis of the deposited data

Results flagged for a closer look

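In 5 of 50 sets of 4 glands (1 gene in 1 group), the gland at one end lay apart from the other 3 by more than Dixon's 95% critical value, and chance marks about 1 set in 20. Control replicate 2 of the 4-week males was the low gland for Acan (0.378 CPM), Cited1 (0.945 CPM) and Susd3 (3.21 CPM). For Drd4 that gland was also the lowest of its group (0.819 CPM), but within the critical value. Female control replicate 3 at 9 weeks was low for Susd3 (0.69 CPM), and so was sham replicate 1 (57.6 CPM). By an interaction test (edgeR), the genotype effect at 6 weeks differed between the sexes. The log2 difference, males minus females, was 3.54 for Cited1, 5.57 for Drd4 and 1.97 for Susd3. In males of that age library number and genotype cannot be told apart, and this limit applies to these differences. The value of Drd4 supports nothing, since Drd4 failed the filter on low counts in females (3 reads over the 4 cKO libraries of 6 weeks) and passed in the joint fit through the male libraries.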

How the results depend on the processing

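Of 904 alternative fits of the 4 genes, 804 were counted as unchanged, and no called result changed sign. For genotype, age and sex, unchanged means the same direction and side of the threshold. For castration it means the same direction and a shift smaller than the larger group SD. The castration fits in this total are no support, since that contrast chose the genes. The total also holds the males-minus-females fits of Drd4, from which nothing is read. The cause of the changes below was not tested. Values are log2 fold changes.

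Leaving out 1 library in turn changed a call or the sign of an uncalled value in these ranges. Genotype in females was -1.35 to -0.96 (Acan, 6 weeks), -0.02 to 1.04 (Acan, 9 weeks), -1.33 to -0.88 (Acan, 12 weeks), -1.56 to -0.86 (Cited1, 9 weeks), and for Susd3 -1.34 to -0.93, -1.20 to -0.82 and -1.34 to -0.71 at 6, 9 and 12 weeks. Genotype in males was -1.01 to 0.26 (Acan) and -0.37 to 0.42 (Susd3) at 4 weeks and 1.44 to 2.16 (Cited1) at 6 weeks. Age in cKO males was 1.63 to 2.90 (Acan), -1.37 to -1.05 (Drd4) and 1.18 to 1.96 (Susd3). Age in controls was -0.05 to 0.21 (Cited1, females) and -0.63 to 0.14 (Drd4, males, 4 to 9 weeks). The change of the genotype effect was -0.20 to 0.31 (Acan) and -0.15 to 0.49 (Susd3) in females and -0.10 to 0.68 (Susd3) in males. Males minus females was 1.78 to 2.60 (Acan) and 3.16 to 3.88 (Cited1) at 6 weeks and -0.79 to 0.33 (Acan) and 1.04 to 1.41 (Susd3) at 9 weeks.

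The replicate block, which rests on numbers that did not pair the glands, was fitted on only the groups compared, so its values change 2 choices at once. In these fits calls were lost for Cited1 (-1.16, females 9 weeks; 1.54, males 6 weeks), Drd4 (2.10, males 4 weeks) and Susd3 (-1.15 and -1.0, females 6 and 12 weeks). Calls were gained with the block for Acan (-1.19 and -1.10, females 6 and 12 weeks), Drd4 (1.07, males 9 weeks) and Susd3 (0.80, males 6 weeks), and Susd3 had -0.11 at 4 weeks in males. Fits of only the groups compared lost calls for age in cKO males of Acan (2.01) and Susd3 (1.47) and for Susd3 in 12-week females (-0.97), and gained Acan in females (-1.13 and -1.06, 6 and 12 weeks) and Susd3 in 6-week males (0.81), so these moves are not put down to the block. DESeq2 gained Acan in 6-week females (-1.13), males minus females of Acan at 6 weeks (2.07) and of Susd3 at 9 weeks (1.23), and lost age in cKO males of Drd4 (-1.20). No filter lost Susd3 in females (-0.95 at both 9 and 12 weeks), and a filter of CPM at least 1 in at least 4 samples gained Acan at 6 weeks (-1.14) and left Cited1 untested in females, so its 3 female calls have no value there. Library number above 24 as a covariate lost Cited1 in 6-week males (1.93) and gave 0.03 for Acan and -0.15 for Susd3 at 4 weeks. Within 9-week males it gave Cited1 1.67 above and -0.67 up to 24, Susd3 0.80 and -0.10, and Acan -0.20 up to 24. Depth limits the female values, where Drd4 was tested only without the filter.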
